A study of Arabidopsis thaliana with 18 samples.

Results

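Genes for TIR-type NLR immune receptors, 7 in number, were followed across 18 libraries from leaves of Arabidopsis thaliana, accession Columbia-0. The 7 genes were chosen by name and locus from the 34212 loci of the deposited tables, and all 7 were found in both tables. They are RPS6 (AT5G46470, chromosome 5), WRR4 (AT1G56510, chromosome 1), TAO1 (AT5G44510, chromosome 5), RPP1 (AT3G44480, chromosome 3), and RPP4 (AT4G16860), RPP5 (AT4G16950) and SNC1 (AT4G16890) of chromosome 4. The control was the pad4-1 single mutant and the mutant was the upf1-3 pad4-1 double mutant, so every plant carried pad4-1 and no wild type was included. Plants were 3 weeks old, and total, monosomal and polysomal RNA were sequenced from 3 biological replicates of each genotype, which gave 6 groups. The 6 total RNA libraries form 1 table and the 12 ribosomal libraries another. The labels do not say whether replicates came from separate plantings, so the p-values measure the spread between these samples.

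NLR proteins are intracellular receptors that sense pathogen effectors, directly or through the host proteins that effectors modify. In the TIR class an N-terminal Toll/interleukin-1 receptor domain is an enzyme that cleaves NAD+, a central nucleotide-binding domain switches the receptor on, and C-terminal leucine-rich repeats take part in recognition. Their signal passes through EDS1 and its partners PAD4 and SAG101 to helper NLRs. UPF1 is the RNA helicase at the core of nonsense-mediated mRNA decay (NMD), which removes transcripts with early stop codons and some normal transcripts with an intron after the stop codon, a long 3′ untranslated region or an upstream open reading frame. Loss of PAD4 relieves the autoimmune growth defect of NMD mutants, which is the usual reason for working in a pad4 background.

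A region that the 7 receptors share shows how they are related. The P-loop is the phosphate-binding motif of many nucleotide-binding proteins and lies early in the central domain of NLRs. The 54 coding bases around it are printed from RefSeq transcripts (TAIR10.1, matched by locus), coding strand, 5′ to 3′, with the 24 bases of the motif in capitals. They start between coding bases 625 and 883, in the second coding exon (the third in RPP1), and RPP1 has 2 matches to the motif, of which the first is shown.
RPS6: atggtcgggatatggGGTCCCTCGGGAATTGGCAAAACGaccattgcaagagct
WRR4: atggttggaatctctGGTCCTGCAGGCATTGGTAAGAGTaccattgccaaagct
TAO1: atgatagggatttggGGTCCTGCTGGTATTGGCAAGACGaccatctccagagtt
RPP1: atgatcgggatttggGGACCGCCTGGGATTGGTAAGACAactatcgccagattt
RPP4: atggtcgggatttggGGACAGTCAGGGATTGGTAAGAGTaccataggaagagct
RPP5: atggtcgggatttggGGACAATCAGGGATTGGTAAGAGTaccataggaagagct
SNC1: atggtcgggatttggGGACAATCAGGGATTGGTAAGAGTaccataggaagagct
RPP5 and SNC1 were identical over all 54 bases, and RPP4 matched each of them at 53. The other pairs matched at 36 to 44 bases. Over the aligned coding sequence RPP5 and SNC1 were 91.8% identical, RPP4 and RPP5 91.0%, and RPP4 and SNC1 82.3%, while every other pair lay between 61.5% and 69.4%. RPP4, SNC1 and RPP5 sit in 1 receptor cluster on the same strand of chromosome 4.

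This likeness limits what short reads can tell. Words of 31 bases in the annotated transcripts were counted on either strand. Of them, 0.322% of RPS6, 5.64% of WRR4 and 5.04% of TAO1 also occur in another gene's transcripts. The shares were 55.4% for RPP1, 42.9% for RPP4, 55.2% for RPP5 and 31.6% for SNC1, so the estimated counts of these 4 genes are uncertain, since reads can be split among copies. RPP1 shares most with its neighbour AT3G44670 (32.6%), and RPP5 with AT4G16920 (33.1%). TAO1 overlaps AT5G44500 on the opposite strand, RPP5 overlaps AT4G16955 on the opposite strand and AT4G02965 on its own, and RPP1 overlaps AT3G44485 on its own strand. The shares include such overlaps besides related copies. Of the 207 shared words of TAO1, 205 occur in AT5G44500, and of the 3213 of RPP5, 707 occur in AT4G16955. The libraries were made strand-specific, but whether counting used strand is not given in the sources used here.

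The annotated transcripts differ in the features that NMD is known to read. RPS6 has 1 annotated transcript of 4997 nt in 11 exons, with a 3′ untranslated region of 1465 nt that holds 5 exon junctions, the farthest 922 nt after the stop codon. WRR4 has 1 junction 270 nt after the stop, in a 3′ untranslated region of 518 nt. For RPP5, 1 of 6 transcripts has a junction 320 nt after the stop. TAO1, RPP4 and SNC1 have no junction after the stop in any transcript, and the single one of RPP1 lies 3 nt after it. Upstream reading frames reach 29 codons in RPP1, 25 in RPP4 and RPP5, and 35 in SNC1, apart from 1 SNC1 transcript with 168. No TAO1 transcript is annotated with both untranslated regions, so their features could not be counted there. A junction over 50 nt after the stop was annotated in 3 of the other 6 genes. The share was 8.87% of 22788 nuclear protein-coding genes with both untranslated regions. It was 35.2% of the 71 such loci with TIR-NBS-LRR in their RefSeq product name. Both sets include the 6 genes themselves. An upstream reading frame of at least 16 codons was annotated in 4 of the 6, against 42.7% and 54.9% of those sets. A 3′ untranslated region over 350 nt was annotated in 4 of the 6, against 31.3% and 59.2%.

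**Figure D1:**
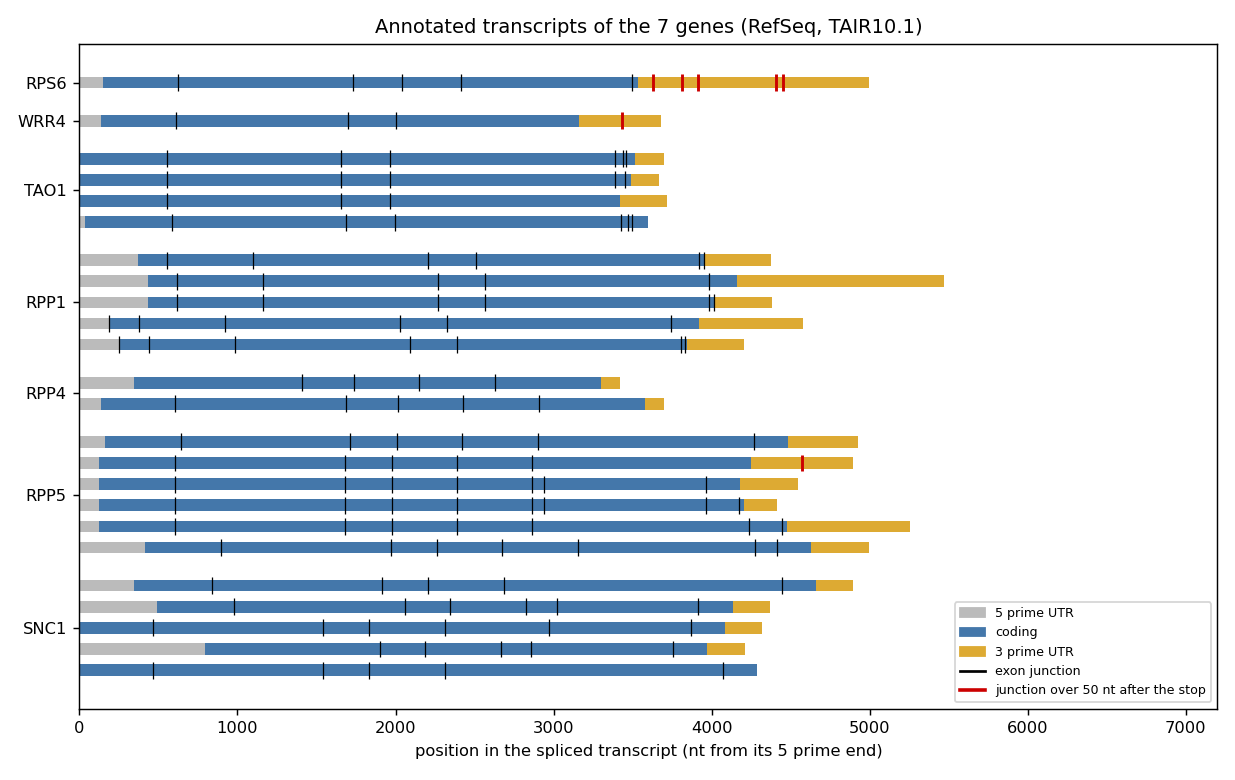
Annotated RefSeq transcripts of the 7 genes, 1 bar each, against position in the spliced transcript in nt. Colours mark the untranslated and coding parts, thin black lines are exon junctions and thick red lines are junctions over 50 nt after the stop codon, which occur 5 times in RPS6, once in WRR4 and once in 1 RPP5 transcript.

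Libraries held 16325537 to 81528839 estimated counts, and the 7 genes had between 16 counts (TAO1) and 22008 counts (SNC1) in a library. Levels are CPM (counts scaled to a common library size, with TMM scaling within each table), so total and ribosomal CPM are on separate scales. UPF1 (AT5G47010) had 61.72, 76.14 and 69.93 CPM in control total RNA and 39.31, 24.84 and 35.97 in the mutant, a fall of log2 -1.05 (SE 0.24, edgeR adjusted p = 0.0159). UPF1 was not called in monosomal (log2 -0.20, adjusted p = 0.724) or polysomal RNA (-0.23, 0.705), where it lay at 26.44 to 65.63 CPM in mutant polysomal RNA, and a gene-level count cannot tell an intact transcript from a disrupted one. The 3 mesophyll markers summed to 14860 to 19120 CPM in control total RNA and 4650 to 8817 in the mutant (1 of 3 called lower, RBCS1A), with overlapping ranges in monosomal and polysomal RNA, and the 2 root hair markers to at most 0.75 in any library. For the 4 flower and tapetum markers the sum was 121.6 CPM in control monosomal replicate 2, 99.15 in replicate 3, and 24.2 and 35.57 in the polysomal libraries of those numbers, against at most 10.38 elsewhere, and 3 of 4 were called lower in mutant monosomal and 2 of 4 in polysomal RNA. The part of these markers in the receptor results was not tested.

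In the mutant, 4 of the 7 receptor genes were higher in total RNA and none was lower. RPS6, WRR4, TAO1 and RPP1 rose 2.72- to 4.23-fold, whereas RPP4, RPP5 and SNC1, which share the chromosome 4 cluster, did not pass the test. Over all 20302 genes tested in total RNA, 15.3% were called higher and 12.5% lower (edgeR quasi-likelihood test, adjusted p under 0.05, two-sided), and the median log2 fold change was 0.03, against 1.45 over the 7 genes. Without TMM scaling the calls were 2491 higher and 2986 lower, against 3107 and 2531 with it. In bulk RNA, fewer cells of a type and less RNA per cell cannot be told apart. The same 4 genes rose in monosomal and in polysomal RNA. Whether control and mutant libraries overlap is given per gene below, but the share of all genes without overlap was not counted. Separation of the groups is therefore no trait particular to these genes. In total, monosomal and polysomal RNA, 42.1%, 28.1% and 27.2% of all genes had an unadjusted edgeR p under 0.05.

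RPS6 encodes the receptor that gives resistance to Pseudomonas syringae carrying the effector HopA1. In total RNA its level was 24.17, 22.60 and 20.75 CPM in the control replicates and 63.39, 61.74 and 63.68 CPM in the mutant. The mutant libraries lay close together and far above all controls, a log2 fold change of 1.48 (SE 0.18, edgeR adjusted p = 0.00244). In monosomal RNA RPS6 had 17.27, 8.59 and 6.14 CPM in control replicates 1 to 3 against 33.45, 26.55 and 54.06 CPM in the mutant ones, a log2 fold change of 1.83 (SE 0.41, edgeR adjusted p = 0.00847). In polysomal RNA it had 25.05, 16.62 and 12.76 CPM in control replicates 1 to 3 against 49.62, 63.57 and 90.28 CPM in the mutant ones, a log2 fold change of 1.90 (SE 0.41, edgeR adjusted p = 0.00573). In neither did the genotypes overlap, and control replicate 1 was the highest control in each.

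WRR4 encodes a receptor for resistance to white rust, caused by Albugo. Its total RNA level was 13.00, 15.19 and 13.53 CPM in control replicates 1 to 3 against 53.48, 63.37 and 50.22 CPM in the mutant ones, a log2 fold change of 2.00 (SE 0.20, edgeR adjusted p = 0.00157). The lowest mutant library stood above 3 times the highest control. In monosomal RNA WRR4 had 9.59, 6.73 and 4.91 CPM in control replicates 1 to 3 against 44.04, 22.11 and 37.36 CPM in the mutant ones (log2 2.28, SE 0.37, edgeR adjusted p = 0.000913). In polysomal RNA it had 13.82, 11.81 and 10.46 CPM against 67.47, 70.38 and 138.66 (log2 2.94, SE 0.37, edgeR adjusted p = 0.000125). Mutant polysomal replicate 3 was the highest WRR4 library of all, and the groups did not overlap.

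TAO1, which adds to the response to the effector AvrB, had the lowest level per kb of the 7 genes. It had 6.24, 7.34 and 6.30 CPM in control total RNA and 33.27, 19.03 and 31.92 CPM in the mutant, a log2 fold change of 2.08 (SE 0.27, edgeR adjusted p = 0.00268). Mutant replicate 2 was the lowest mutant library, still above every control. In monosomal RNA TAO1 had 1.94, 0.48 and 1.49 CPM in control replicates 1 to 3 against 13.49, 9.11 and 9.31 CPM in the mutant ones, a log2 fold change of 3.04 (SE 0.55, edgeR adjusted p = 0.00221). In polysomal RNA it had 4.89, 1.87 and 3.36 CPM against 12.65, 25.38 and 41.06, a log2 fold change of 2.97 (SE 0.54, edgeR adjusted p = 0.00188). The genotypes did not overlap, but the mutant polysomal libraries were spread over more than a 3-fold range.

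RPP1 is named for recognition of the downy mildew agent Hyaloperonospora arabidopsidis, described in other accessions. Its total RNA level was 23.91, 29.21 and 29.71 CPM in control replicates 1 to 3 against 55.36, 84.09 and 86.15 CPM in the mutant ones, a log2 fold change of 1.45 (SE 0.24, edgeR adjusted p = 0.00579). All mutant libraries were above all controls, with replicate 1 the lowest of each genotype. In monosomal RNA RPP1 had 24.44, 15.62 and 10.47 CPM in control replicates 1 to 3 against 52.09, 62.01 and 56.46 CPM in the mutant ones, a log2 fold change of 1.75 (SE 0.36, edgeR adjusted p = 0.00498). In polysomal RNA it had 46.62, 24.20 and 18.34 CPM against 76.33, 79.38 and 93.28, a log2 fold change of 1.48 (SE 0.36, edgeR adjusted p = 0.0114). The groups did not overlap, yet the polysomal call was lost without control polysomal replicate 2 (log2 1.35, adjusted p = 0.0624) or replicate 3 (1.23, 0.0687). Of the 4 genes that rose, RPP1 shares the most sequence with copies.

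**Figure D2:**
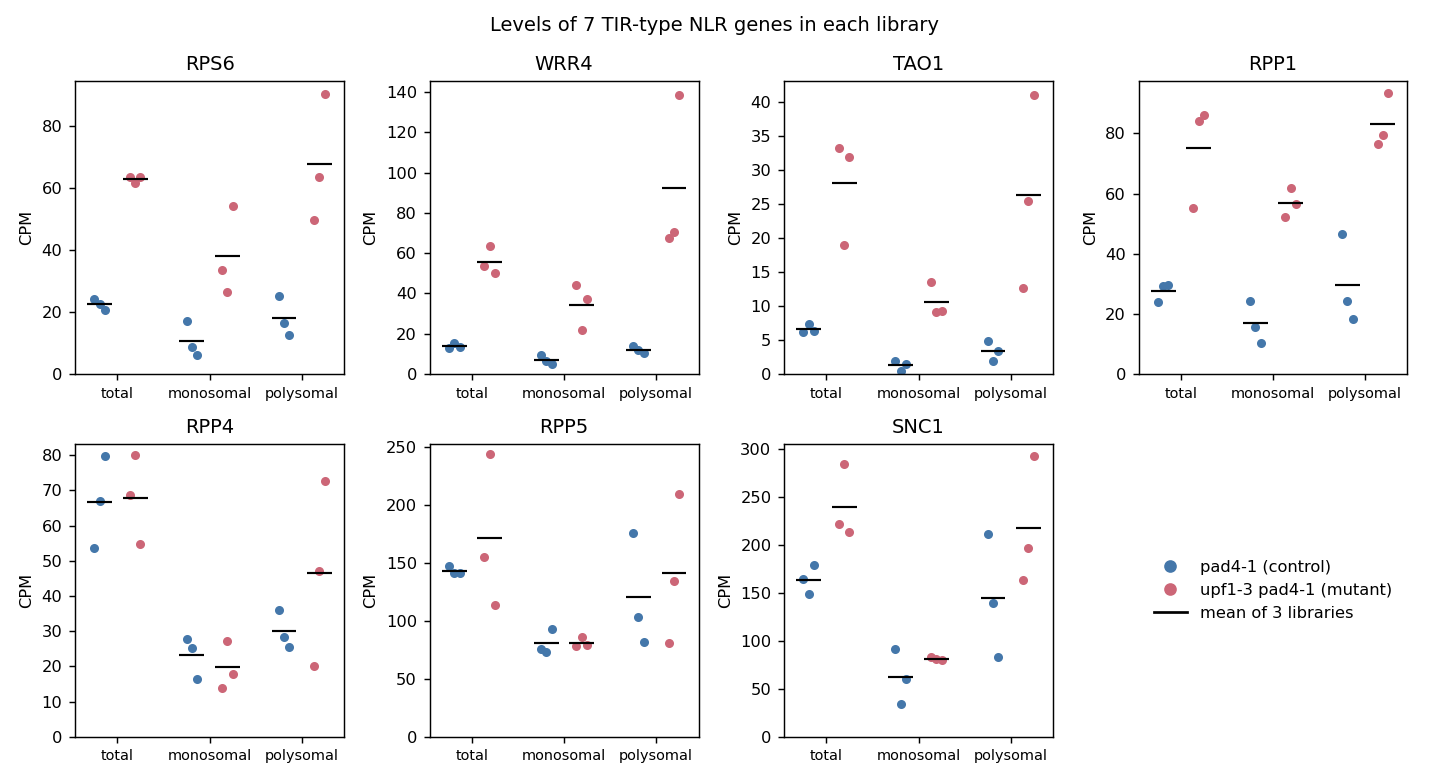
Level of each gene in CPM (linear axes from 0, shared by the 3 kinds of RNA of a gene) in control (blue) and mutant (red) libraries, with the mean of 3 libraries as a line. CPM were scaled separately for total and for ribosomal RNA, so heights cannot be compared between these. For RPS6, WRR4, TAO1 and RPP1 every mutant library lies above every control library of the same kind of RNA. The share of all genes that separate this way was not counted. The groups of RPP4 and RPP5 overlap in all 3 kinds, and those of SNC1 in monosomal and polysomal but not in total RNA.

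RPP4 encodes a receptor for downy mildew resistance in Columbia-0. Its total RNA level was 53.61, 66.97 and 79.89 CPM in control replicates 1 to 3 against 68.86, 79.99 and 54.71 CPM in the mutant ones, and its log2 fold change was 0.02 (SE 0.24, edgeR adjusted p = 0.955). The groups covered nearly the same range. The log2 fold change was -0.23 (SE 0.39, edgeR adjusted p = 0.751; 0.402 without TMM scaling) in monosomal RNA, where the control had 27.73, 25.18 and 16.48 CPM and the mutant 14.00, 27.15 and 17.98. In polysomal RNA RPP4 had 36.18, 28.43 and 25.43 CPM in control replicates 1 to 3 against 20.07, 47.17 and 72.80 CPM in the mutant ones (log2 0.64, SE 0.39, edgeR adjusted p = 0.332). Mutant polysomal replicate 1 lay below all controls and the other mutant replicates above them.

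RPP5, also named for downy mildew resistance, from work in the accession Landsberg erecta, had 147.36, 141.43 and 140.96 CPM in control total RNA and 155.50, 244.32 and 113.36 CPM in the mutant. The controls were tight and the mutant libraries lay on both sides of them (log2 0.26, SE 0.30, edgeR adjusted p = 0.547). In monosomal RNA RPP5 had 75.68, 73.16 and 92.75 CPM in control replicates 1 to 3 against 78.29, 86.26 and 79.37 CPM in the mutant ones (log2 0.01, SE 0.35, edgeR adjusted p = 0.987). In polysomal RNA it had 175.78, 103.53 and 81.43 CPM in control replicates 1 to 3 against 81.05, 134.41 and 209.11 CPM in the mutant ones, which overlapped over most of their range (log2 0.23, SE 0.35, edgeR adjusted p = 0.741).

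SNC1 is known from the gain-of-function allele snc1, which causes constant defence and dwarf growth. Per kb it had the highest level of the 7 in total RNA, and its CPM were 164.25, 148.72 and 178.58 CPM in control replicates 1 to 3 against 222.09, 284.46 and 213.14 CPM in the mutant ones. These groups did not overlap, but the difference did not pass the test across all genes (log2 0.55, SE 0.22, edgeR adjusted p = 0.100). In monosomal RNA SNC1 had 91.82, 34.37 and 60.18 CPM in control replicates 1 to 3 against 83.58, 81.06 and 79.98 CPM in the mutant ones (log2 0.39, SE 0.38, edgeR adjusted p = 0.547). In polysomal RNA it had 211.02, 139.39 and 83.19 CPM in control replicates 1 to 3 against 163.73, 196.49 and 292.55 CPM in the mutant ones (log2 0.59, SE 0.38, edgeR adjusted p = 0.358). The ribosomal groups overlapped. A p above the threshold does not show that RPP4, RPP5 or SNC1 kept their level: the SEs of 0.22 to 0.39 leave room for modest changes.

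**Figure D3:**
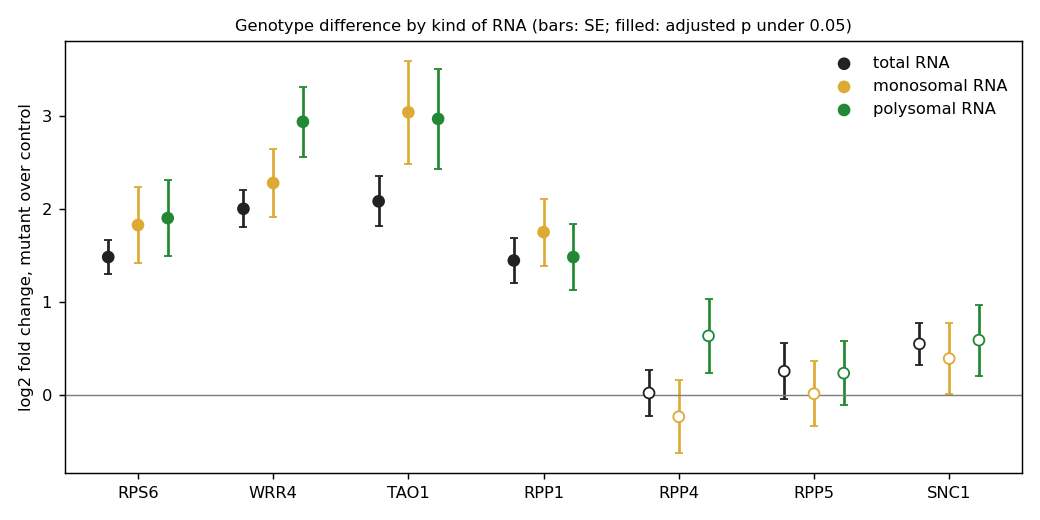
Log2 fold change of mutant over control for each gene in total, monosomal and polysomal RNA, with SE bars; filled points had an adjusted p under 0.05. RPS6, WRR4, TAO1 and RPP1 lie between 1.45 and 3.04 and are filled throughout, and RPP4, RPP5 and SNC1 lie between -0.23 and 0.64 and are open.

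The backgrounds for the ribosomal counts were lower than in total RNA. Of 20895 genes tested, 8.07% were called higher and 4.6% lower in monosomal RNA, and 8.34% higher and 5.04% lower in polysomal RNA, with median log2 fold changes of 0.02 and 0.03. Without TMM scaling the split was 3139 higher and 149 lower in monosomal RNA, against 1686 and 961 with it, and 2251 and 102 in polysomal RNA, against 1742 and 1054. Against these, 4 of 7 receptor genes were higher in each.

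Libraries that stand apart were left out in turn to see their weight in these values. Mutant total replicate 2 had a summed level of 1851 CPM over 12 salicylic acid output genes, against 62.61 and 96.53 in its fellow replicates and 69.21 to 72.9 in the control. WRR4, RPP4, RPP5 and SNC1 had their highest total RNA level in that library, RPP4 by a small margin, and TAO1 had its lowest mutant one. Without it the log2 fold changes in total RNA were 1.53 for RPS6, 1.93 for WRR4, 2.33 for TAO1 and 1.38 for RPP1 (largest edgeR adjusted p = 0.00636), and -0.08 for RPP4, -0.06 for RPP5 and 0.44 for SNC1. Control replicate 1 of monosomal and polysomal RNA held 59.86% and 74.13% of its counts on chloroplast genes, the highest of their groups, and had the highest control level of RPS6, WRR4, TAO1, RPP1, RPP4 and SNC1. Without both, the log2 fold changes were 2.37 and 2.19 for RPS6 in monosomal and polysomal RNA, 2.57 and 3.03 for WRR4, 3.52 and 3.30 for TAO1, and 2.12 and 1.96 for RPP1, all called.

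Levels of different genes were compared per kb of the longest annotated transcript. In control total RNA the order was SNC1 (33.5 CPM per kb), RPP5 (27.3), RPP4 (18.1), RPP1 (5.05), RPS6 (4.50), WRR4 (3.78) and TAO1 (1.78), and only RPP1 and RPS6 overlapped among neighbours in that order. In mutant total RNA it was SNC1 (49.0), RPP5 (32.6), RPP4 (18.3), WRR4 (15.1), RPP1 (13.8), RPS6 (12.6) and TAO1 (7.55), where every neighbouring pair overlapped except RPS6 and TAO1. WRR4, sixth in the control, thus stood within the range of RPP4 in the mutant. In mutant polysomal RNA WRR4 averaged 25.04 CPM per kb, next to RPP5 at 26.9 and above RPP1 at 15.2.

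The ribosomal fractions compare the level of each message on polysomes, which carry several ribosomes, with that on monosomes with a single one. CPM are scaled within each library, so a ratio sets a gene against the other genes. It does not give the share of a message that sat on polysomes. In libraries with the same genotype and replicate number the polysomal level exceeded the monosomal one in 40 of 42 pairs, with ratios from 0.878 to 4.41. The exceptions were TAO1 in mutant replicate 1 (0.938) and RPP5 in control replicate 3. The 7 genes share the same libraries, so these pairs are not independent. Other TIR-type NLR genes leaned the same way, with a log2 ratio above 0 in 45 of 52 in the control and 48 of 52 in the mutant. For coiled-coil NLR genes it was 16 of 20 and 20 of 20. The median log2 ratio over all genes was -0.0007 and 0.03, and their share above 0 was not counted. None of the 7 genes was called in the control, where the log2 ratios ran from 0.37 (RPP4, SE 0.39) to 1.38 (TAO1, SE 0.53), and 4 of 7 had an unadjusted p under 0.05, as did 12.8% of all genes. SNC1 in the control had a log2 ratio of 1.22 (SE 0.39, edgeR adjusted p = 0.196). After adjustment 0.33% of all genes were called in the control and 1.11% in the mutant.

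In the mutant the log2 ratios of polysome to monosome ran from 0.55 (RPP1, SE 0.35) to 1.42, reached by both WRR4 (SE 0.35, edgeR adjusted p = 0.0667) and SNC1 (SE 0.39, edgeR adjusted p = 0.0923). None of the 7 was called, and 5 had an unadjusted p under 0.05, as did 13.3% of all genes. WRR4 had 1.53, 3.18 and 3.71 times as much polysomal as monosomal CPM in mutant replicates 1 to 3, and SNC1 had 1.96, 2.42 and 3.66 times. In the mutant, deviations of monosomal and polysomal libraries of the same number correlated at 0.179 to 0.327, and those of different numbers at -0.236 to -0.018. In the control these ranges overlapped (0.132 to 0.486 and -0.372 to 0.215), so the pairing was less clear there. With the pairing as a block WRR4 (log2 1.40, SE 0.28, edgeR adjusted p = 0.0166) and SNC1 (log2 1.37, SE 0.30, edgeR adjusted p = 0.0258) were called in the mutant. With the block 624 genes were called in the mutant and 481 in the control, against 231 and 69 without it. In the control no receptor gene was called with the block, although SNC1 came near (log2 1.23, SE 0.30, edgeR adjusted p = 0.0523).

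**Figure D4:**
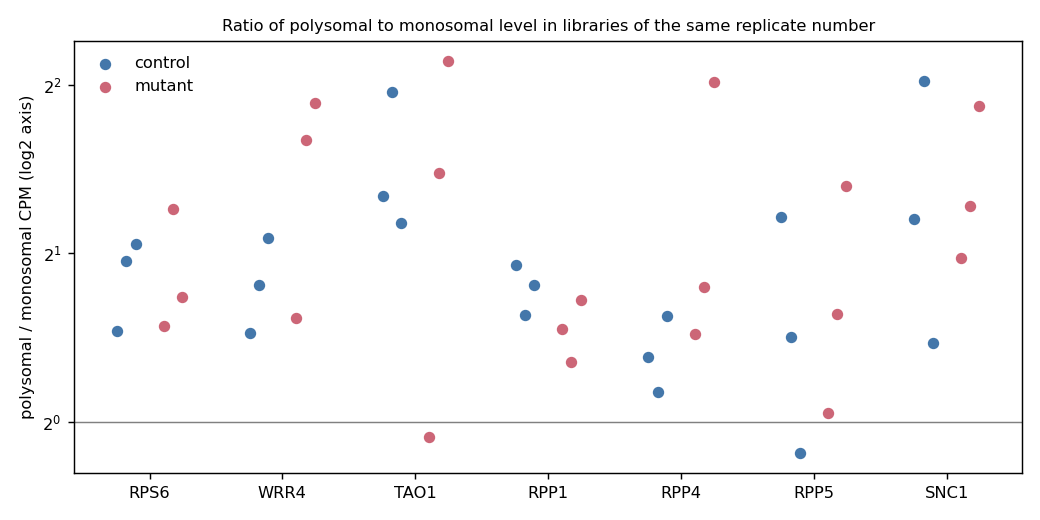
Ratio of polysomal to monosomal CPM for each gene in libraries of the same genotype and replicate number (log2 axis, 3 pairs per genotype). Of the 42 ratios 40 lie above 1, and the control and mutant ranges overlap for every gene. The share of all genes with a ratio above 1 was not counted.

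No difference between genotypes in these ratios was called. The log2 difference in the polysome to monosome ratio ran from -0.27 (RPP1, SE 0.49) to 0.87 (RPP4, SE 0.56), with 0 of 7 called (0.0% of all 20895 genes by edgeR, 493 of them at an unadjusted p under 0.05, 2 genes by DESeq2 and 0 by limma-voom). None of the 7 had an unadjusted p under 0.05. These fits left out the pairing of monosomal and polysomal libraries. With the pairing as a block the log2 difference ran from -0.28 (TAO1, SE 0.59) to 0.71 (RPP4, SE 0.41). The smallest SE was 0.31 (RPP1), and 0 of 20895 genes were called. The difference in the polysome to total ratio ran from -0.11 (RPP5, SE 0.48) to 0.85 (WRR4, SE 0.44, unadjusted p = 0.0660, edgeR adjusted p = 0.750), and that of the monosome to total ratio from -0.31 (RPP4, SE 0.51) to 0.91 (TAO1, SE 0.64). For both, 0 of 7 were called by edgeR, with 0.0% of 21905 genes called, 1508 and 2332 genes at an unadjusted p under 0.05, 53 and 179 called by DESeq2, and 2 and 1 by limma-voom. The rises in total RNA and those on ribosomes thus were not shown to differ in size. The SEs of 0.44 to 0.70 in the fits without pairing leave wide intervals.

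Within a genotype, polysomal levels relative to total RNA were not called for any of the 7 genes. In the control they ran from log2 -1.23 (RPP4, SE 0.36, edgeR adjusted p = 0.0774) to 0.03 (RPP1, SE 0.32), against a background of 2.48% called in either direction. In the mutant they ran from -0.71 (RPP4, SE 0.36) to 0.56 (WRR4, SE 0.31), against 8.95%. RPP4 was the lowest of the 7 in both genotypes. RPP4 passed the threshold in the control under 5 of 26 other settings, among them DESeq2 (log2 -1.23, adjusted p = 0.0312), and over all 26 its adjusted p ran from 0.0272 to 0.285.

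Neighbouring receptor genes of the same clusters rose in part. Of 16 tested cluster neighbours (17 listed), 6 were higher and none lower in each kind of RNA. Over all genes 15.3% were called higher in total, 8.07% in monosomal and 8.34% in polysomal RNA. The neighbours had median log2 fold changes of 0.95 in total, 1.28 in monosomal and 1.49 in polysomal RNA. In the cluster of RPP4, RPP5 and SNC1, AT4G16900 rose by log2 1.97 (SE 0.26, edgeR adjusted p = 0.00295) in total RNA, and RLM3, a TIR-domain gene for resistance to the fungus Leptosphaeria maculans, by 0.82 (SE 0.23, edgeR adjusted p = 0.0315); both also rose in monosomal and polysomal RNA. AT4G16960 rose in total RNA (1.89, SE 0.31, adjusted p = 0.00513). Beside RPS6, AT5G46490 rose by log2 1.46 in total, 1.65 in monosomal and 2.31 in polysomal RNA (largest edgeR adjusted p = 0.00460). In the RPP1 family AT3G44630 rose by 1.29, 2.01 and 2.38 (largest edgeR adjusted p = 0.00391), and AT3G44670, with which RPP1 shares most sequence, by 2.13 in monosomal and 1.53 in polysomal RNA, while in total RNA it had 0.66 (edgeR adjusted p = 0.0887).

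Among other TIR-type NLR genes 26 of 51 tested (64 listed) were higher in total RNA, 12 of 52 in monosomal and 17 of 52 in polysomal RNA, and none was lower, with medians of 1.25, 1.00 and 1.38. The lowest p-values in total RNA belonged to AT1G72840 (log2 3.22, SE 0.29), AT1G63860 (2.88), AT5G40910 (2.26) and AT5G51630 (2.40), all with edgeR adjusted p of 0.00161 or less. AT1G63860 rose by 3.18 in monosomal and 3.04 in polysomal RNA as well. Of the coiled-coil class of NLR genes, 4 of 21 were higher in total RNA, 2 of 20 in monosomal and 5 of 20 in polysomal RNA, and none was lower, with medians of 0.37, 0.60 and 0.79. Over all genes 15.3%, 8.07% and 8.34% were called higher, so the coiled-coil counts in total and monosomal RNA lie near the background. CW9 (AT1G59620) rose by log2 2.91 in total RNA (SE 0.33, edgeR adjusted p = 0.00192). Whether the 7 genes differ from the rest of their class was not tested.

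**Figure D5:**
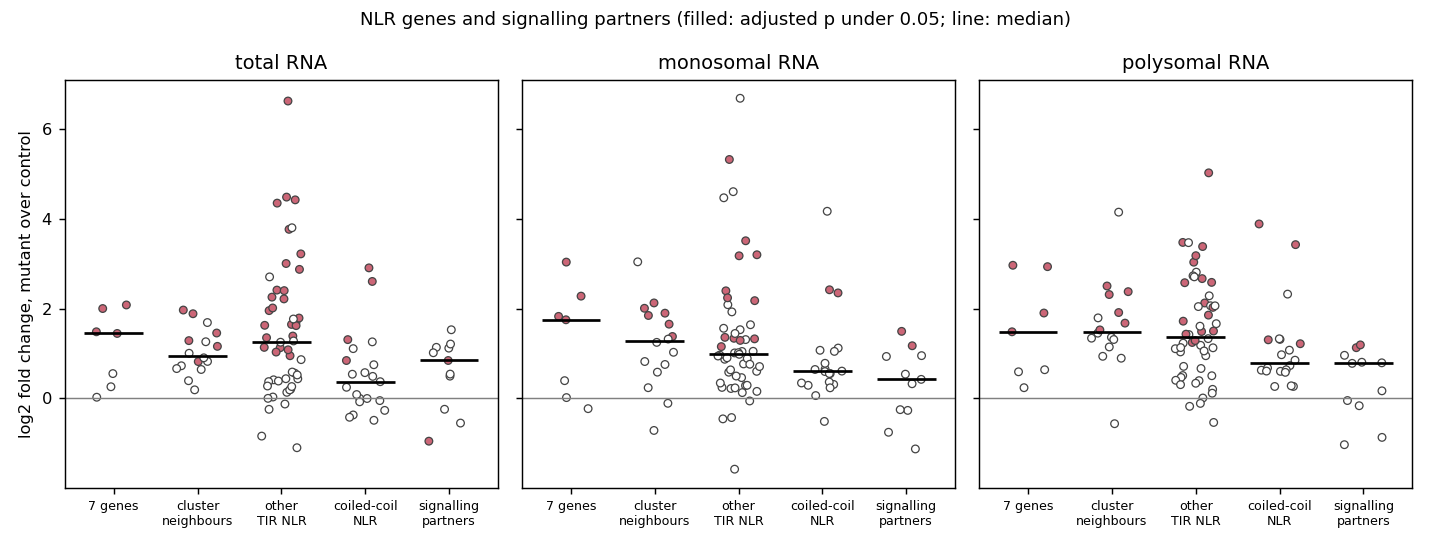
Log2 fold change of mutant over control in total, monosomal and polysomal RNA for the 7 genes, their cluster neighbours, other TIR-type NLR genes, coiled-coil NLR genes and signalling partners, 1 point per tested gene, filled where the adjusted p was under 0.05, with the median as a line. In total RNA 4 of 7, 6 of 16, 26 of 51 and 4 of 21 receptor genes were higher, and 1 of 11 partners was higher and 1 lower.

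The annotated features were set beside the calls in TIR-NBS-LRR loci other than the 7. In total RNA 15 of 22 tested loci with a junction over 50 nt after the stop were higher (68.2%), against 13 of 37 without one (35.1%). The contrast was smaller for a 3′ untranslated region over 350 nt, with 54.0% of 37 higher against 36.4% of 22. For an upstream reading frame of at least 16 codons 15 of 30 were higher against 13 of 29. The median log2 fold change was lower with that feature (1.09) than without (1.26). In polysomal RNA the reading frame gave 15 of 31 higher against 7 of 29, with medians of 1.45 and 1.29. There the junction gave 11 of 22 against 11 of 38, and the long 3′ untranslated region 16 of 38 against 6 of 22. In monosomal RNA the reading frame gave 9 of 31 against 8 of 29. There the junction gave 9 of 22 against 8 of 38, and the long 3′ untranslated region 13 of 38 against 4 of 22. Over all protein-coding genes with both untranslated regions the shares for the junction in total RNA were 22.9% of 1883 and 13.1% of 16751. For the reading frame they were 17.4% of 8547 and 11.3% of 10087. The long 3′ untranslated region had 16.0% of 6596 and 13.0% of 12038. Among the 7 genes, RPS6 and WRR4 carry a junction over 50 nt after the stop in their only transcript and rose. RPP1 and TAO1 rose with no such junction annotated, and RPP5 carries it in 1 of 6 transcripts and was not called. These counts describe annotated models; no difference between these shares was tested, and whether any feature sets the change was not tested.

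Components that act with these receptors were called at shares near those of all genes, so their counts are no result about them. Of 11 signalling partners 1 was higher and 1 lower in total RNA, where 27.8% of all genes were called, and 2 were higher and none lower in each ribosomal fraction, where 12.7% (monosomal) and 13.4% (polysomal) of all genes were called. AT5G66900, 1 of these partners, rose by log2 0.84 (SE 0.20, edgeR adjusted p = 0.0200) and by 1.17 and 1.19 on monosomes and polysomes, and HSP81-2, a cytosolic HSP90 chaperone, fell by 0.96 on the log2 scale (SE 0.28, edgeR adjusted p = 0.0380) in total RNA. SAG101 had a log2 fold change of 1.53 (SE 0.52, edgeR adjusted p = 0.0614). PAD4 RNA was at 1.78, 1.32 and 1.31 CPM in control total RNA and 3.57, 40.47 and 4.42 in the mutant (log2 3.45, SE 0.94, edgeR adjusted p = 0.0298), with most of it in replicate 2. These levels do not check the pad4-1 lesion.

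Of 15 regulators of SNC1 and other NLR proteins, 1 was higher and 2 were lower in total RNA, 1 higher and 1 lower in monosomal RNA, and 1 higher in polysomal RNA. These shares are near or below those of all genes called (27.8%, 12.7% and 13.4%). BON1, a copine that restrains SNC1 expression, averaged 0.972 CPM (SD 0.634, n = 3) in control total RNA and had 12.63, 35.22 and 18.86 in the mutant (log2 4.52, SE 0.68, edgeR adjusted p = 0.00400). In monosomal RNA BON1 was called lower (edgeR adjusted p = 0.0484), with 0.461 to 2.73 CPM in the control and no count in 2 of 3 mutant libraries. MOS6, an importin alpha, fell by 0.99 on the log2 scale (SE 0.20, edgeR adjusted p = 0.0119), and MOS4, of a spliceosome-associated complex, fell by 0.88 (SE 0.24, edgeR adjusted p = 0.0286). Among salicylic acid output genes 4 of 10 tested were higher in total RNA, 2 of 12 in monosomal and 5 of 12 in polysomal RNA. Over all genes 15.3%, 8.07% and 8.34% were called higher. The total RNA values rest mainly on mutant replicate 2: the 12 genes summed to 62.61, 1851 and 96.53 CPM in the mutant replicates. The control had 69.21 to 72.9, so mutant replicate 1 lay below every control. EDS16, the isochorismate synthase of salicylic acid synthesis, had 8.15, 90.4 and 16.7 CPM in mutant total RNA against 3.93 to 4.31 in the control (log2 3.20, SE 0.82, edgeR adjusted p = 0.0250).

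The likeness of expression was measured as Pearson's r of log2 CPM over the 18 libraries among 16124 loci. The libraries fall into 2 genotypes and 3 kinds of RNA and share depth and composition, so r is a description. RPS6 was most like AT5G03250 (0.979) and WRKY19 (0.957), WRR4 most like AT3G44630 (0.977) and AT5G09460 (0.972), and TAO1 most like AT5G59650 (0.978) and the pseudogene AT1G43886. RPP1 was most like AT5G22690 (0.962) and AT1G63860 (0.956). RPP4 was most like AT5G47020 (0.884) and the chloroplast gene ATCG00730 (0.879), RPP5 had 0.868 with UPL1, and SNC1 was most like EIN2 (0.961) and UPL1. Among the 7, RPS6, WRR4, TAO1 and RPP1 had r of 0.893 to 0.957 with each other, and RPP4, RPP5 and SNC1 0.774 to 0.862, while pairs across these sets ran from 0.345 to 0.749.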

How the data were processed

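The authors deposited estimated counts per gene, in 1 table of 6 total RNA libraries and 1 of 12 monosomal and polysomal libraries. Names in the submitters' processing notes are kallisto 0.43.0, limma and the build TAIR10, without their roles. How transcripts were summed per gene, and whether strand was used, is not given in the sources used here. All sample columns were used (0 left out). Gene models, symbols and sequences came from RefSeq TAIR10.1, matched by locus for all 7 genes; builds may differ, so no genome coordinates are given.

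Counts were rounded and tested with edgeR 4.0.16 (R 4.3.3) by quasi-likelihood fits after filterByExpr (count minimum 10) with TMM scaling and Benjamini-Hochberg adjustment over all genes tested, called at an adjusted p under 0.05. Total RNA was fitted alone, ribosomal RNA together, and comparisons with total RNA over 18 libraries. The procedure was tested on simulated data. Alternatives were DESeq2 1.42.0, limma-voom (limma 3.58.1), other scalings and filters, a replicate block and each library left out. Depth was 16325537 to 81528839 counts per library. For log2 CPM a pseudocount of 0.5 was added.

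Deviations of same-numbered monosomal and polysomal libraries correlated at 0.132 to 0.486 in the control and 0.179 to 0.327 in the mutant. For different numbers the ranges were -0.372 to 0.215 and -0.236 to -0.018, so in the control they overlapped. Same-numbered monosomal and polysomal libraries were taken as pairs only for the ratios per replicate number and in the block within genotype. The main fits did not use this pairing. Same-numbered libraries of both genotypes were not taken as pairs (lowest -0.202). Named genes were all 7 genes, up to 4 loci per list with the smallest p in total RNA, any cluster neighbour, the 2 most alike loci per gene, and UPF1 and PAD4. Some genes that this rule takes are left out of the text. The genes and lists were chosen with earlier results of these data known. No replicate pair agreed within sampling noise.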

Additional observations from a re-analysis of the deposited data

How the results depend on the processing

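RPS6, WRR4 and TAO1 stayed called in total RNA under 13 alternatives and in monosomal and polysomal RNA under 21 each, and RPP1 likewise except without control polysomal replicate 2 or 3. Their log2 fold changes over these ranged from 1.23 to 3.74. SNC1 was called in monosomal RNA only without TMM scaling (log2 1.08, adjusted p = 0.0485). Leaving TMM scaling out moved the median of all genes from 0.03 to -0.13 in total RNA. That median moved from 0.02 to 0.62 in monosomal and from 0.03 to 0.47 in polysomal RNA. The number of the 7 genes called for polysome against monosome was 1 in the control with no count filter; in the mutant it was 3 with no filter, 2 by DESeq2, 1 by limma-voom, 1 without both ribosomal control libraries of number 1 and 2 with the block within genotype, and 0 to 2 with single libraries left out. For polysome against total in the control it was 1 without TMM scaling, with no filter or by DESeq2, each time RPP4, and 0 to 1 with single libraries left out. The last block and the joint omission were chosen after seeing the data.

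Directions near 0 turned. In total RNA RPP4 was -0.113 without TMM scaling, and with single libraries left out RPP4 ran from -0.086 to 0.181 and RPP5 from -0.060 to 0.503. In monosomal RNA RPP4 was 0.402 without TMM scaling, and RPP5 was -0.017 with DESeq2 size factors and by DESeq2, -0.022 without both controls of number 1, and -0.054 to 0.129 with single libraries left out. RPP5 in polysomal RNA ran from -0.156 to 0.611. For polysome against total in the control RPP1 was -0.450 without TMM scaling, -0.035 without organelle genes, -0.019 with no filter, -0.105 by limma-voom, -0.496 without both controls, and -0.50 to 0.234 with single libraries left out. The genotype difference of the polysome to monosome ratio of RPP1 ran from -0.640 to 0.211. That of the polysome to total ratio of RPP5 was 0.610 without TMM scaling, 0.289 without both controls and -0.464 to 0.299 with single libraries left out, and that of the monosome to total ratio of RPP4 was 0.515 without TMM scaling. The causes were not tested.

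Replicate numbers did not pair the genotypes (correlations of -0.202 to 0.201). With the number as a replicate block across genotypes, 4 of 7 genes were higher in total, monosomal and polysomal RNA and 0 of 7 were called for polysome against monosome, and RPP1 for polysome against total in the control was -0.016. Calls over all genes numbered 5638 in total RNA (2047 to 6109 with single libraries left out, 4910 to 7171 under other settings), 2647 in monosomal RNA (1378 to 2887, 2097 to 3874) and 2796 in polysomal RNA (1418 to 3152, 2306 to 3791). For polysome against monosome they numbered 69 in the control (2 to 140, 0 to 577) and 231 in the mutant (5 to 386, 8 to 797), and for polysome against total 543 (48 to 619, 170 to 1373) and 1960 (702 to 2238, 1398 to 3023). For the genotype differences they were 0 for the polysome to monosome ratio (0, 0 to 48), 0 for the polysome to total ratio (0 to 97, 0 to 72) and 0 for the monosome to total ratio (0 to 111, 0 to 179), the 97 and 111 without mutant total replicate 3. Depth limits TAO1 most, at 16 counts in its lowest library.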
